A study of Mus musculus with 30 samples.

Results

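A set of 9 genes of the Nodal, Lefty and activin pathway was followed in mouse embryonic stem (ES) cells: the secreted antagonists Lefty1, Lefty2 and Cer1, the ligand Nodal, the co-receptor Tdgf1 (Cripto), the receptor Acvr2b, the transcription factor Foxh1, the inhibitory Smad7 and the corepressor Skil. They were found by their gene symbol in the platform annotation, which gave 11 of the 24611 probes and 9 of the 15967 named genes. The set was chosen by measured differences in these same arrays, those of Lefty genes between media and with DAPT. Differences of its members in those comparisons are therefore descriptions and carry no test.

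The samples were grown for 6 hours in N2B27, a serum-free medium, or in ES cell medium, which holds serum, serum replacement and LIF. The 7 groups of 4 were N2B27 under 1% oxygen with DAPT (1% O2+DAPT), under 1% oxygen with doxycycline (1% O2+Dox), under 1% oxygen alone (1% O2), N2B27 at ambient oxygen with DAPT (DAPT), with doxycycline (Dox) or with neither (N2B27), and ES cell medium (ESC). DAPT, a gamma-secretase inhibitor that blocks the release of the Notch intracellular domain, was given at 2.5 ng/ml as the labels state it, after 4 hours of DAPT in ES cell medium. The labels give no such period for the other groups, so the pretreatment and the inhibitor cannot be told apart. Doxycycline was used at 2 ug/ml. All groups came from the male line Ainv15, in which doxycycline drives an inserted gene. As known of the study, that gene encodes the Notch1 intracellular domain, and the question was how Notch activity and hypoxia combine. The labels do not name it, and no group lacking it received the drug, so effects of the drug and of the gene cannot be told apart.

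Nodal is a ligand of the TGF-beta family that signals through activin receptors, including the type II receptor Acvr2b, with the help of the co-receptor Cripto, the product of Tdgf1. The receptors phosphorylate Smad2 and Smad3, which enter the nucleus and act with partners such as Foxh1. Lefty1 and Lefty2 are targets of the same signal and inhibit it from outside the cell, forming a feedback loop that is active in ES cells and in the early embryo. Smad7 and Skil restrain the signal inside the cell.

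Promoters of 4 of the 9 genes (Acvr2b, Cer1, Nodal and Tdgf1) were listed in RefSeq (build GRCm38.p6), each covering 250 bases before to 50 after the start of the gene. Of these, 3 are shown because their genes contrast under 1% oxygen, where Tdgf1 was higher and Nodal and Acvr2b were not called. Each runs 5′ to 3′ on the gene's own strand, and capitals mark the core of the site of hypoxia-inducible factors (HIF), ACGTG or GCGTG on either strand. The Tdgf1 promoter lies at chr9:110946109-110946408 on the minus strand, that of Nodal at chr10:61417722-61418021 on the plus strand and that of Acvr2b at chr9:119401928-119402227 on the plus strand.
Tdgf1: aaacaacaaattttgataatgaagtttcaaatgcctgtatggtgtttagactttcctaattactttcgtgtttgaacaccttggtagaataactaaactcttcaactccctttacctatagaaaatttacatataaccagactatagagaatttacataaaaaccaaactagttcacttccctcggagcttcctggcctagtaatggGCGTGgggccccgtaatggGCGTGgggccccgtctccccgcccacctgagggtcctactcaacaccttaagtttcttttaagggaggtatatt
Nodal: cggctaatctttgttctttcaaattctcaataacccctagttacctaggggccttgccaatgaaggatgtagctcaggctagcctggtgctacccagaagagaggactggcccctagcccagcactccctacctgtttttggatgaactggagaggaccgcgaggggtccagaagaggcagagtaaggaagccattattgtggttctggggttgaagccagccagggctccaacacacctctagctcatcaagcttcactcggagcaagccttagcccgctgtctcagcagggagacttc
Acvr2b: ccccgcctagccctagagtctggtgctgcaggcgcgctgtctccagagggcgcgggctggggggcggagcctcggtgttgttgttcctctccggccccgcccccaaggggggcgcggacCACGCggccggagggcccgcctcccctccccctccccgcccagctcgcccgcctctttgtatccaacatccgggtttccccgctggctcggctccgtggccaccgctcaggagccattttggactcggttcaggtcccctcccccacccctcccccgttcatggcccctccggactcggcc

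The core was found 2 times in the Tdgf1 promoter, starting 43 and 24 bases before the start of the gene, and 1 time each in those of Acvr2b and Cer1. It was not in that of Nodal. It is common, since 43.8% of 32851 promoters hold it. The Foxh1 motif TGTGNATT (3.6% of promoters) and the core of the RBPJ site, TGGGAA (25.6%), where the Notch intracellular domain acts, were in none of the 4 promoters. The Smad motif CAGAC (49.6%) was in those of Tdgf1, Acvr2b and Cer1. All were searched on both strands, and a match describes letters, not binding.

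Expression was read on 1-colour Illumina arrays and is given as the log2 of the background-corrected, quantile-normalised signal, on which a difference of 1 is a doubling. Levels of different probes cannot be set against each other. Of the 9 genes, 6 had a probe above the background limit on 28 of 28 samples: Lefty1, Lefty2, Nodal (both probes), Tdgf1, Foxh1 and Acvr2b. Smad7, Skil, Cer1 and the second probe of Tdgf1 were not above the limit on any of the 28 samples and failed the filter on dim probes, so no level or change is given for them. The ES cell markers fixed for this purpose were above the limit on all 28 samples for all 7 that had a probe. Of the markers of other cell types, those above the limit on all 28 samples were 4 of 8 for primitive endoderm, 3 of 5 for trophectoderm, 2 of 6 for fibroblasts, 1 of 5 for mesoderm and primitive streak and 1 of 5 for neural cells, and those above it on 0 were 3, 2, 0, 2 and 2 in the same order. In such bulk samples, fewer cells of a type and less RNA per cell cannot be told apart.

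For 5 of the 6 genes, all but Acvr2b, the sets of replicates 1 and 2 and of replicates 3 and 4 differed by more than any of the 8 comparisons between groups, as the plot of levels by sample shows. The mean of replicates 3 and 4 minus that of replicates 1 and 2, over all groups, was -1.37 for Lefty2, -1.04 for Lefty1, -0.45 for Nodal and -0.52 for Foxh1. For Tdgf1 it was 1.30, and for Acvr2b -0.07. The labels do not say what the 2 sets of replicates are. For each of the 6 genes the ranges of the groups overlapped in all 8 comparisons.

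**Figure D1:**
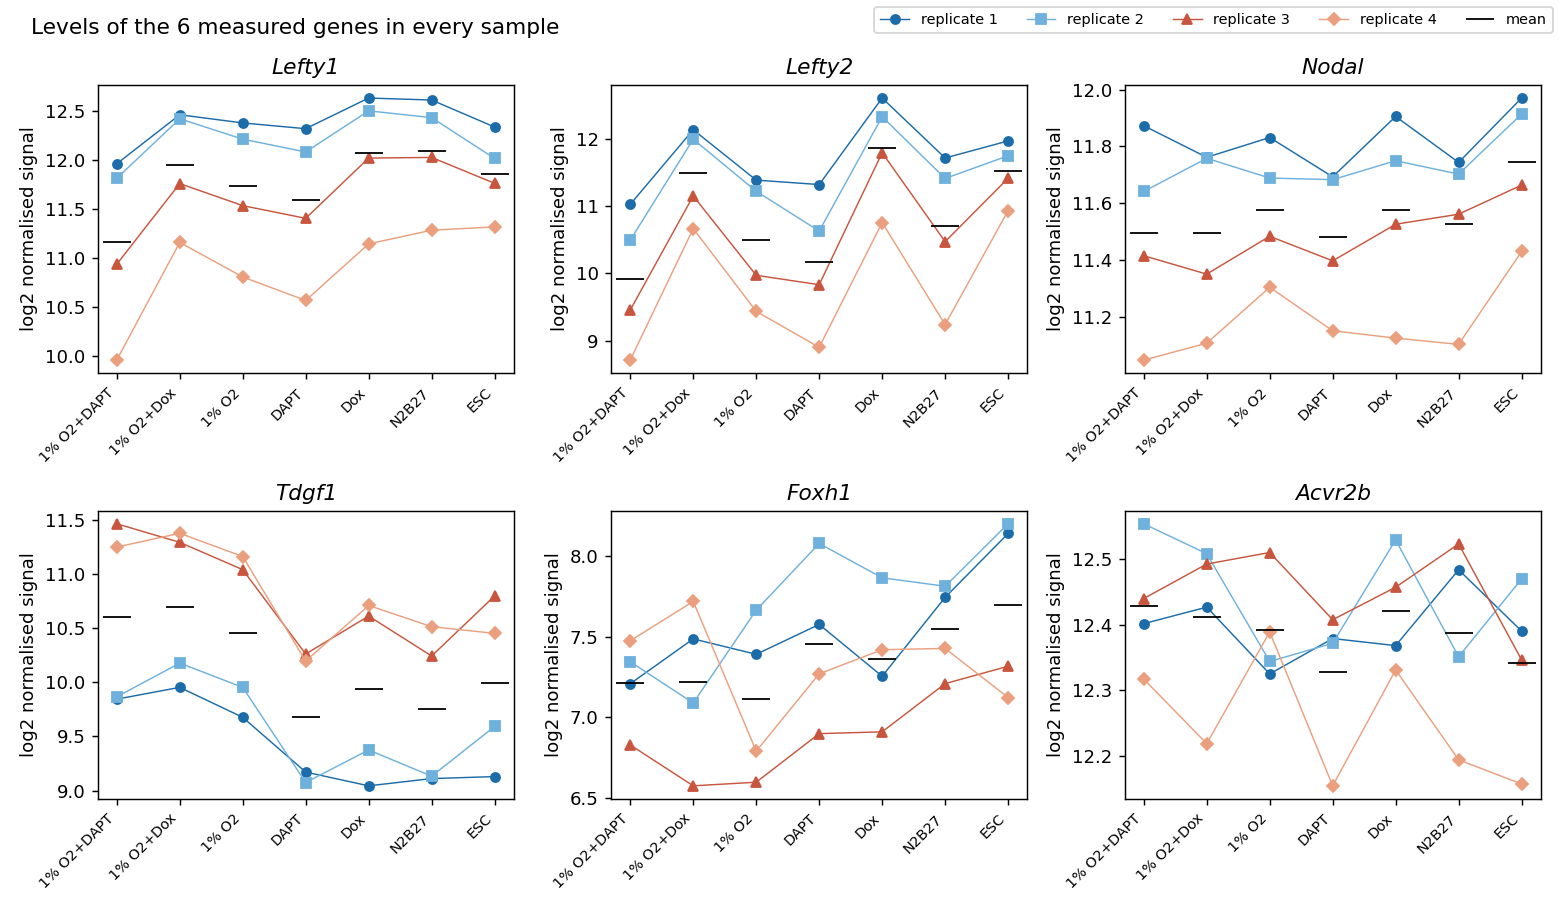
Log2 normalised signal (vertical axis, a separate scale for each gene) of the 6 genes above background in every sample of the 7 groups. Points joined by a line share a replicate number and short black bars are group means of 4 samples; replicates 3 and 4 lie below replicates 1 and 2 for Lefty1, Lefty2 and Nodal, and above them for Tdgf1.

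The numbers paired the samples: every 2 samples with the same number deviated together from their group means (correlation 0.70 to 0.84 over genes). A limma model of group means over all 28 samples, with no term for the number, called none of the 6 genes in any of 8 comparisons at a Benjamini-Hochberg adjusted p under 0.05, and none at an unadjusted p under 0.05. The same model with the replicate number as a block compared samples within a number. Calls of the 6 genes given below are those of this replicate block, and none of them was made without it over all 28 samples.

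The antagonist Lefty2 was higher with doxycycline in every pair of samples at both oxygen levels. In Dox samples its level was 12.60, 12.33, 11.79 and 10.75 in replicates 1 to 4, against 11.71, 11.41, 10.47 and 9.24 in N2B27 samples. The 2 groups overlap, but within each number the Dox sample is the higher one. The difference was 1.16 ± 0.17 (SE with the replicate block, 0.60 without it, n = 4 a group), a 2.24-fold rise, with pair differences of 0.89, 0.92, 1.32 and 1.51. It passed the test of the limma model with the block at an adjusted p of 0.000135. The N2B27 samples also enter the medium and DAPT comparisons used to choose the set, so this p-value is not independent of the choice.

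Under 1% oxygen the same gene was also higher with doxycycline. In 1% O2+Dox samples Lefty2 was at 12.13, 11.99, 11.15 and 10.66, against 11.38, 11.22, 9.97 and 9.43 in 1% O2 samples. The doxycycline sample was again the higher of each pair, by 0.75, 0.77, 1.18 and 1.23. The difference was 0.98 ± 0.17 (limma with the block, adjusted p = 0.00144), a 1.98-fold rise, and the call was lost without replicate 3 (adjusted p = 0.0505). The 1% O2 samples also enter a DAPT comparison used for the choice. The doxycycline difference under 1% oxygen minus that at ambient oxygen was -0.18, with a 95% interval of -0.69 to 0.33. Among 9809 genes Lefty2 had the 13th largest rise with doxycycline at ambient oxygen and the 14th largest under 1% oxygen. In both sets of replicates the difference was positive, at 0.90 in replicates 1 and 2 and 1.42 in replicates 3 and 4 at ambient oxygen.

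Of the 6 genes, Lefty2 was the one called with doxycycline at either oxygen level, while 1.73% of all genes were called at ambient oxygen and 1.46% under 1% oxygen with the block (0.336% and 0.194% without it). Lefty1, whose product is closely related, stood at 12.64, 12.51, 12.02 and 11.15 in Dox samples, against 12.62, 12.44, 12.03 and 11.29 in N2B27 samples. These values nearly coincide pair by pair. The doxycycline difference of Lefty1 was -0.01 at ambient oxygen (95% interval -0.25 to 0.22) and 0.22 under 1% oxygen (-0.02 to 0.46). Nodal differed by 0.05 (-0.07 to 0.17) and -0.08 (-0.20 to 0.04), and by 0.09 and 0.03 at its second probe. Tdgf1 differed by 0.18 (-0.02 to 0.39) and 0.24 (0.04 to 0.45). Foxh1 and Acvr2b lay within 0.19 of 0.

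The doxycycline difference of Lefty2 exceeded that of Lefty1 in 8 of 8 pairs, by a mean of 0.97 ± 0.36 (SD). It exceeded that of Nodal by 1.09 and that of Tdgf1 by 0.86, also in 8 of 8 pairs. Lefty2 was the gene called with doxycycline on these same pairs, so its lead over the other 3 genes is a description and carries no test. The pairs at the 2 oxygen levels share replicate numbers and are not fully independent. The 2 Lefty transcripts are close copies and whether their probes in part read both was not tested. The summed signal of the neural marker list moved with doxycycline as well, at 461 to 553 in Dox samples against 331 to 378 in N2B27 samples, and at 421 to 543 in 1% O2+Dox samples against 343 to 442 in 1% O2 samples, with 1 of its 5 genes above background on all samples and Sox1 and Pax6 on none. The other marker lists overlapped between Dox and N2B27 samples, with primitive endoderm at 1921 to 2166 against 1975 to 2472. All lists, the neural one included, overlapped between 1% O2+Dox and 1% O2 samples. The part of these lists in the result was not tested.

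**Figure D2:**
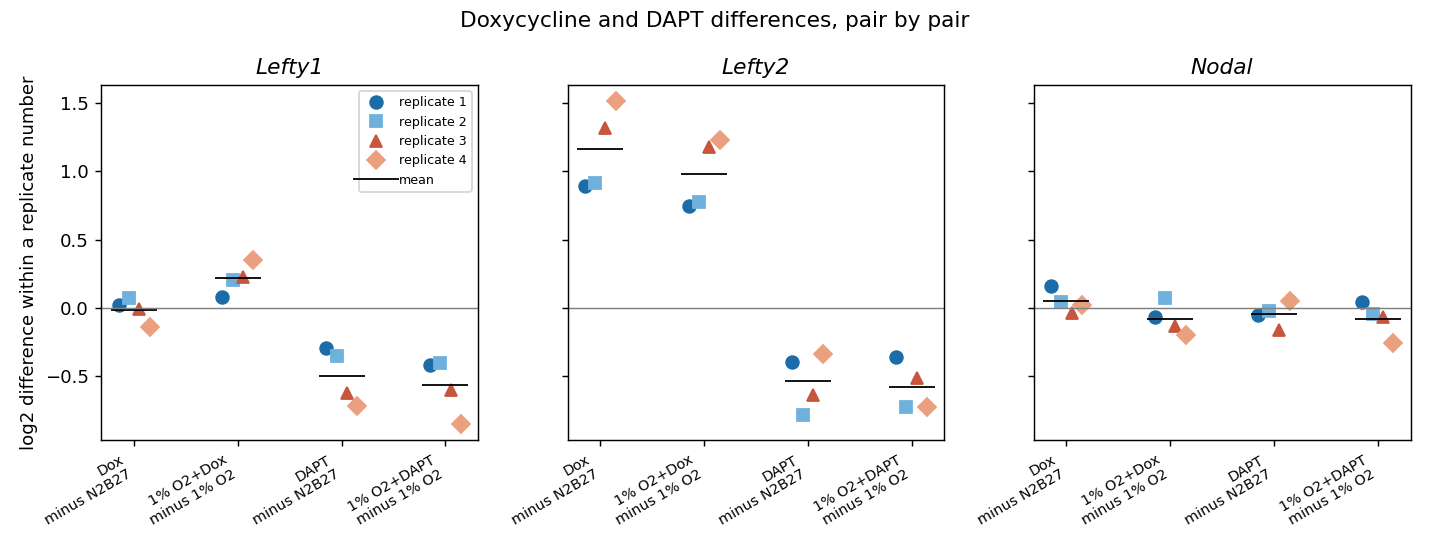
Log2 difference within each replicate number (vertical axis) for Lefty1, Lefty2 and Nodal with doxycycline and with DAPT at both oxygen levels. Symbols are the 4 replicate numbers and black bars the means; Lefty2 is above 0 in 8 of 8 pairs with doxycycline, and both Lefty genes are below 0 in 8 of 8 pairs with DAPT, while Nodal stays near 0.

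With DAPT both Lefty genes were lower in all 8 pairs, which is a description, since this pattern led to their choice. Lefty1 had 12.32, 12.09, 11.41 and 10.57 in DAPT samples, against 12.62, 12.44, 12.03 and 11.29 in N2B27 samples. Under 1% oxygen it had 11.97, 11.82, 10.94 and 9.96 in 1% O2+DAPT samples, against 12.38, 12.22, 11.54 and 10.81 in 1% O2 samples. The differences were -0.50 ± 0.11 and -0.57 ± 0.11 (SE with the replicate block, 0.47 without it), and both were larger in replicates 3 and 4, at -0.67 and -0.72, than in replicates 1 and 2, at -0.32 and -0.41.

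For Lefty2 the level was 11.32, 10.63, 9.83 and 8.90 in DAPT samples, against 11.71, 11.41, 10.47 and 9.24 in N2B27 samples. In 1% O2+DAPT samples it was 11.02, 10.49, 9.45 and 8.71, against 11.38, 11.22, 9.97 and 9.43 in 1% O2 samples. The differences were -0.54 ± 0.17 and -0.58 ± 0.17 (SE with the replicate block).

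No gene at all was called with DAPT at either oxygen level with or without the block, so 0 of the 6 genes stand beside 0% of all genes. At an unadjusted p under 0.05 the block gave 560 of 9809 genes at ambient oxygen and 594 under 1% oxygen. A share of 0.05 of genes passes this threshold where nothing differs, so these are not counts of genes that respond. Over both oxygen levels the mean difference was -0.53 for Lefty1 and -0.56 for Lefty2. The DAPT difference under 1% oxygen minus that at ambient oxygen was -0.07 ± 0.16 for Lefty1 and -0.04 ± 0.24 for Lefty2. The other 4 genes had DAPT differences between -0.09 and 0.15. Of Nodal, the difference was -0.05 at ambient and -0.08 under 1% oxygen, and 0.03 and 0.09 at its second probe.

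The change of medium was also used for the choice, and its differences are a description. Lefty2 had 11.71, 11.41, 10.47 and 9.24 in N2B27 samples, against 11.97, 11.75, 11.41 and 10.93 in ESC samples. It was lower in 4 of 4 pairs, by little in replicates 1 and 2 and by most in replicate 4, with a mean difference of -0.81 ± 0.17. Lefty1 had a difference of 0.23 ± 0.11 (95% interval -0.0065 to 0.47), higher in 3 of 4 pairs and at -0.03 in replicate 4. Nodal differed by -0.22 ± 0.06, with all 4 N2B27 samples below their ESC partners, and by -0.25 at its second probe. Tdgf1 differed by -0.24 and Foxh1 by -0.15. Acvr2b differed by 0.05. With the block, 2 of the 6 genes (Lefty2 and Nodal) were past the threshold and lower, beside 7.69% of all genes, and without it none, beside 0.714%. The count was 1 without replicate 1, 2 or 4. As the genes were chosen on this comparison, the count is a description and nothing is read from it. Side by side for Lefty2, the differences were -0.54 with DAPT, 1.16 with doxycycline and -0.81 with the change of medium; N2B27 samples enter all 3.

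**Figure D3:**
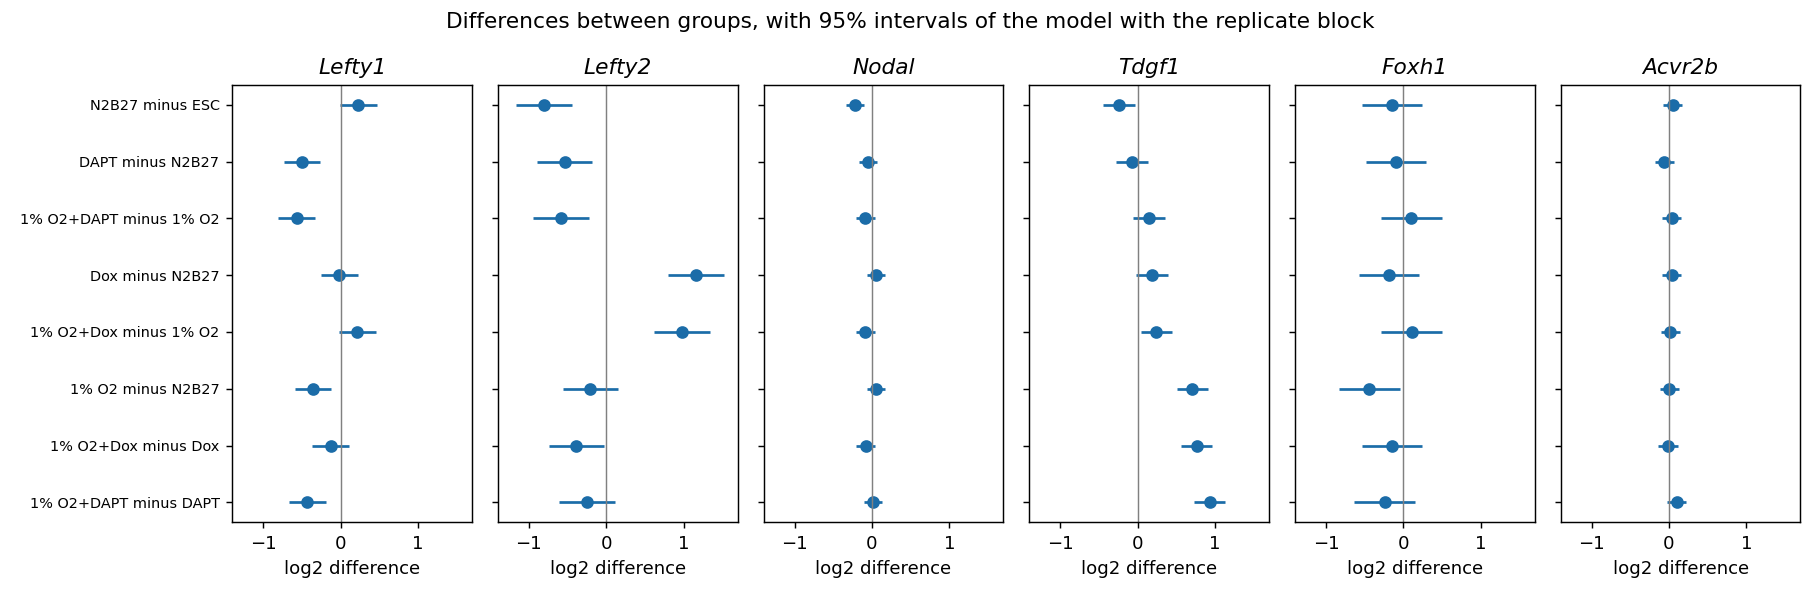
Log2 differences (horizontal axis) of the 6 genes in 8 comparisons, as points with 95% intervals from the model with the replicate block. The medium and both DAPT comparisons were used to choose the genes and are shown as a description; Lefty2 is at 1.16 and 0.98 with doxycycline and Tdgf1 between 0.71 and 0.93 under 1% oxygen.

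The co-receptor gene Tdgf1 was higher under 1% oxygen in every pair. In 1% O2 samples Tdgf1 was at 9.68, 9.95, 11.04 and 11.16, against 9.11, 9.13, 10.24 and 10.51 in N2B27 samples. With doxycycline it was at 9.95, 10.18, 11.29 and 11.38 in 1% O2+Dox samples, against 9.04, 9.37, 10.61 and 10.71 in Dox samples. With DAPT it was at 9.84, 9.87, 11.46 and 11.25 in 1% O2+DAPT samples, against 9.17, 9.07, 10.26 and 10.20 in DAPT samples. Within each replicate number the low-oxygen sample was the higher in 12 of 12 pairs, and the pair differences ran from 0.57 to 1.20.

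The oxygen differences of Tdgf1 were 0.71, 0.76 and 0.93 (± 0.10 each, SE with the replicate block, 0.51 without it). They passed limma's test with the block at adjusted p-values of 1.09e-05, 3.73e-06 and 2.0e-07. The N2B27, 1% O2, DAPT and 1% O2+DAPT samples also enter comparisons used to choose the set. The mean of the oxygen differences was 0.80, a 1.74-fold rise. The second probe of Tdgf1 was not above background and gives no value to set beside it. The receptor gene Acvr2b had oxygen differences of 0.00, -0.01 and 0.10, none of them called.

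Lefty1 went the other way under 1% oxygen. It fell by 0.36 in 1% O2 samples against N2B27 samples and by 0.43 in 1% O2+DAPT samples against DAPT samples, in 4 of 4 pairs each (limma with the block, adjusted p = 0.0284 and 0.00908). All of these groups also enter comparisons used for the choice. In 1% O2+Dox against Dox samples the difference was -0.12 and was not called (adjusted p = 0.496). The first of these calls was lost without replicate 1 (adjusted p = 0.0692) or replicate 3 (0.201) and with the authors' processed values (0.0607), and the second without replicate 3 (0.0776). Lefty2 differed by -0.21, -0.38 and -0.25 and Foxh1 by -0.44, -0.15 and -0.24 in the same order, none of them called. In the mean of the 3 oxygen comparisons, chosen after seeing the data, the block called Lefty1 (-0.30), Lefty2 (-0.28) and Foxh1 (-0.27) lower, at adjusted p-values of 0.00064, 0.0261 and 0.0447, and Tdgf1 higher, beside 41.5% of all genes called with the block and 17.6% without it. Nodal differed by 0.05, -0.08 and 0.01, and by 0.10, 0.04 and 0.15 at its second probe, and was not called.

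With the block, the genes called under 1% oxygen were thus 2 of 6 without a compound, 1 of 6 with doxycycline and 2 of 6 with DAPT, beside 20%, 19.5% and 21% of all genes (4.12%, 4.07% and 4.04% without the block). Those shares of the 6 are not far from the background. Median scaling of the arrays in place of quantile normalisation moved the median of all genes to -0.12 in 1% O2+DAPT against DAPT samples, where Lefty1 then differed by -0.59.

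Of 50 other genes of the pathway listed from textbook knowledge, 46 had a probe and 36 were tested. Under 1% oxygen and with the block, 7 of the 36 rose and 2 fell in each of the 3 comparisons. The shares of all genes given above count both directions. Of all 9809 genes, 899, 895 and 920 rose and 1059, 1016 and 1139 fell in the same order. Median differences of the 36 were 0.02, 0.05 and 0.03, beside -0.02 over all genes each time. Without the block the count was 0, 1 and 1 in the same order, and both calls were of Eomes, a T-box factor of mesoderm and endoderm formation that Nodal signals induce. Eomes was at 9.26, 8.73, 8.51 and 7.99 in 1% O2+Dox samples, against 8.15, 7.63, 7.45 and 7.40 in Dox samples. Its oxygen differences were 0.82, 0.97 and 0.88, those with doxycycline and with DAPT called without the block as well (limma, adjusted p = 0.0263 and 0.0480). Each of these 2 calls was lost on leaving out replicate 2, 3 or 4 at ambient oxygen or replicate 1, 2 or 3 under 1% oxygen.

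Other genes moved less. Fst, encoding follistatin, which binds and neutralises activin, rose by 0.51, 0.56 and 0.45 under 1% oxygen, with adjusted p-values of 0.000477, 0.000206 and 0.00177 in limma with the block. Pcsk6, a convertase that cleaves the Nodal precursor, rose by 0.34, 0.34 and 0.37, and Smad3 by 0.36, 0.38 and 0.30. Sox17, an endoderm transcription factor, rose by 0.36, 0.39 and 0.35. The ligand gene Gdf3 fell by 0.32 in 1% O2 and by 0.33 in 1% O2+DAPT samples and had a difference of -0.20 in 1% O2+Dox samples that was not called. Nedd4l, a ubiquitin ligase gene, rose by 0.25 in 1% O2 and by 0.26 in 1% O2+DAPT samples and differed by 0.16 in 1% O2+Dox samples, which was not called.

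The remaining calls under 1% oxygen were of 1 comparison each, or rest on dim values. Without a compound the ubiquitin ligase gene Smurf1, above background on 17 of 28 samples, fell by 0.50. With doxycycline Tmeff1 rose by 0.27, Gdf1 fell by 0.24 and Trim33 fell by 0.24, and the other 3 probes of Trim33 differed by -0.06, 0.30 and -0.06. With DAPT Tgfb2 fell by 0.29. Fgf5, a gene of the early epiblast, rose by 0.56, 0.36 and 0.36 but was above background on 11 of 28 samples. Goosecoid (Gsc) was above it on 9 samples, and Mixl1, Foxa2 and Lhx1 on 0.

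**Figure D4:**
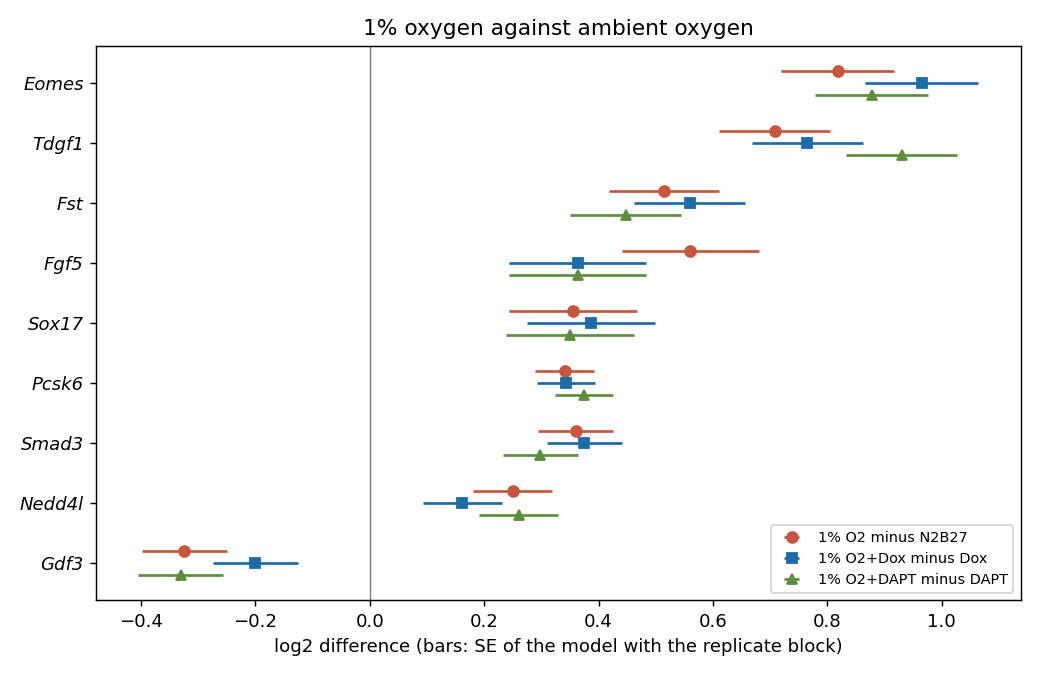
Log2 differences between 1% and ambient oxygen (horizontal axis) for Tdgf1 and the other pathway genes called in at least 2 of the 3 oxygen comparisons, with bars for the SE of the model with the replicate block. Colours and symbols are the 3 comparisons; Eomes and Tdgf1 lie farthest to the right and Gdf3 is the one gene below 0.

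Marker lists, some of which hold these genes, were summed as well. The summed signal of the mesoderm and primitive streak list, of which Eomes is part, was 442 to 655 in 1% O2+DAPT samples against 332 to 442 in DAPT samples, 480 to 886 in 1% O2+Dox samples against 359 to 541 in Dox samples and 461 to 675 in 1% O2 samples against 340 to 555 in N2B27 samples. Of its 5 genes with a probe, 1 was above background on all samples and 2 on none. That 1 gene is Eomes, so the rise of the sum is not separate from the rise of Eomes itself. The primitive endoderm list, which holds Sox17, summed to 2224 to 2584 in 1% O2+DAPT samples against 1985 to 2535 in DAPT samples, 2103 to 2748 in 1% O2+Dox samples against 1921 to 2166 in Dox samples and 2075 to 2779 in 1% O2 samples against 1975 to 2472 in N2B27 samples, and 3 of its 8 genes were above background on no sample. Both lists had the higher upper end under 1% oxygen in all 3 comparisons, and their ranges overlapped. The neural list did so without a compound and with DAPT only. The ES cell list had the higher upper end in all 3 as well, but its lower end was the lower one each time. It summed to 32257 to 34531 in 1% O2 samples against 32583 to 33957 in N2B27 samples. With doxycycline it was 31916.5 to 36819 in 1% O2+Dox samples against 32457 to 36412 in Dox samples. With DAPT it was 30160 to 35431 in 1% O2+DAPT samples against 31261 to 35121 in DAPT samples.

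The trophectoderm list, which also holds Eomes, had the higher upper end too. It summed to 901 to 1683 in 1% O2+DAPT samples against 775 to 1253 in DAPT samples. With doxycycline it was 794 to 1754 in 1% O2+Dox samples against 747 to 1319 in Dox samples. Without a compound it was 906 to 1587 in 1% O2 samples against 766 to 1351 in N2B27 samples. The fibroblast list had the lower upper end, at 575 to 1042 in 1% O2+DAPT samples against 778 to 1188 in DAPT samples, 644 to 1038 in 1% O2+Dox samples against 770 to 1231 in Dox samples and 682 to 1015 in 1% O2 samples against 738 to 1101 in N2B27 samples. Sums that hold Eomes or Sox17 contain the rise of those genes, and the part of such cells in the result was not tested.

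With doxycycline at ambient oxygen, 2 of the 36 other genes were called with the block, beside 1.73% of all genes. The TGF-beta receptor gene Tgfbr2 rose by 0.43 (limma with the block, adjusted p = 0.0131) and Fst fell by 0.47 (adjusted p = 0.00729). The rise of Tgfbr2 was least in replicate 3, at 0.08. Under 1% oxygen Tgfbr2 was not called, with means of 8.21 in 1% O2+Dox and 8.13 in 1% O2 samples. Fst also fell by 0.42 under 1% oxygen (adjusted p = 0.0210), where it was the only one of the 36 called, beside 1.46% of all genes. Fst was thus lower in doxycycline samples at both oxygen levels and higher in low-oxygen samples in all 3 comparisons. None of these calls of Fst was made without the block. Fst was above background on 27 of 28 samples, and on 3 of the 4 Dox samples. With DAPT none of the 36 was called, with or without the block, and 1 and 4 had an unadjusted p under 0.05 with it, beside 560 and 594 of 9809 genes.

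Between N2B27 and ESC samples, 10 of the 36 fell and 2 rose with the block. Of all genes, 16.1% were called in either direction and 7.69% were lower. Without the block, beside 1.94% of all genes in either direction and 0.714% lower, 2 of the 36 fell. These were Gdf1, a ligand that pairs with Nodal, which fell by 0.58 (limma, adjusted p = 0.00485), and the TGF-beta target Ccn2, which fell by 0.81 (adjusted p = 0.0154). This count without the block was 1 on leaving out ESC replicate 4 or N2B27 replicate 2. With the block, Smad3 rose by 0.37, while Tgfb2 fell by 0.51, Fst by 0.32, Gdf3 and Pcsk6 by 0.30 each and Nedd4l by 0.26. The ranges of all marker lists but that of mesoderm and primitive streak were lower at both ends as well. The ES cell list summed to 32583 to 33957 in N2B27 samples against 32624 to 36112 in ESC samples. Primitive endoderm was at 1975 to 2472 against 1982 to 2629 and trophectoderm at 766 to 1351 against 838 to 1382. The fibroblast list summed to 738 to 1101 in N2B27 samples against 933 to 1489 in ESC samples, and the neural list to 331 to 378 in N2B27 samples against 367 to 484 in ESC samples. Their part in these differences was not tested.

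The genes whose pattern over the 28 samples was most like that of a member were found by Pearson correlation after the mean of each replicate number was subtracted. For Lefty2 these were Rnd3 (r = 0.90), Iffo2 (0.87), Arhgef3 (0.86), Pde1b (0.86) and Card10 (0.85). Rnd3 differed by 0.66 with doxycycline and -0.52 with the change of medium, but by -0.02 with DAPT. For Lefty1 they were Cdh3 (0.79), Dctn1 (0.78), Tmc6 (0.76), Fam222a (0.74) and Dmd (0.73). Cdh3, the gene of P-cadherin, differed by -0.19 and -0.34 with DAPT at ambient and 1% oxygen. For Nodal they were Hspg2 (0.83), Col18a1 (0.82), Plaur, Slc7a5 and Wnt6 (0.81 each). Lefty1 and Lefty2 correlated at 0.76 with each other on this scale and at 0.88 with the replicate means left in. All of these samples share 7 groups, so genes with like group differences correlate.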

How the data were processed

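RNA of 28 ES cell samples was hybridised to 30 Illumina BeadChip arrays. The deposited main table holds an intensity per probe on a linear scale, and the file headers describe it as not normalised. The program was BeadStudio, per the submitters' processing notes. Between 27.2% and 29.9% of values per array lay below 0. The deposited second table of the authors, also intensity on a linear scale, has a floor of 50, and the method behind it was not given in the sources used here. It served as an alternative.

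Background was corrected with normexp (offset 0) in limma 3.58.1 (R 4.3.3), then log2 values were quantile normalised, which assumes like distributions on all arrays. Repeat arrays of Dox replicates 3 and 4 were averaged. Probes above their array's median on at least 4 of 28 samples were kept (12259), and the probe of highest mean stood for each of 9809 genes. By the naming rule, the 9 genes are described where they have a level, other pathway genes where called in 1 of the 8 comparisons (up to 8 a comparison by the smallest p with the block; Sox17 and Fgf5, named in others, are also given where they came 9th), and the 5 genes most like Lefty1, Lefty2 and Nodal.

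The model (lmFit, eBayes) had 7 group means and 21 residual degrees of freedom, or 18 with the replicate number as a block. Calls need a Benjamini-Hochberg adjusted p under 0.05 over all genes, two-sided. Replicate numbers come from the labels, and 28 of 28 samples correlated best with a sample of their own number. The labels call the samples biological replicates without naming separate cultures, so p-values rest on the spread between these samples, which may be technical. With the block, that spread is what remains after differences between replicate numbers are taken out. There is no read depth, and the number of arrays limits the precision. Mean signal per array was 645 to 862. The table has no detection p-values, so the background limit was the 98th percentile of the sizes of an array's negative signals (29.3 to 41.6), set after seeing the data. The fit was tested on simulated data. The members and lists were chosen with earlier results of these data known. Alternatives changed the normalisation, offset, filter, probe choice, samples and replicates.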

Additional observations from a re-analysis of the deposited data

Results flagged for a closer look

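Of 49 groups of 4 samples examined for these probes, 1 held a sample far from the others. Acvr2b in DAPT replicate 4 had a log2 level of 12.15, while the other 3 DAPT samples lay between 12.37 and 12.41. Replicate 4 was also the lowest for Acvr2b in every other group except 1% O2. Chance alone sets apart about 1 group in 20.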

How the results depend on the processing

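The replicate block changed most counts. With it, 2 members were lower in N2B27 against ESC, and 1, 1, 2, 1 and 2 were called in Dox against N2B27, 1% O2+Dox against 1% O2, 1% O2 against N2B27, 1% O2+Dox against Dox and 1% O2+DAPT against DAPT, where the model without the block called 0. Other pathway genes called with the replicate block numbered 12 in N2B27 against ESC, then 2, 1, 9, 9 and 9 in the same order, against 2, 0, 0, 0, 1 and 1 without it. The count was 0 with and without the block in DAPT against N2B27 and in 1% O2+DAPT against 1% O2, and 0 with the other alternatives there, except 1 with the block and median scaling in 1% O2+DAPT against 1% O2. Counts of members in the medium and DAPT comparisons, on which they were chosen, are descriptions and no test. The block with the authors' processed values called 1 in place of 2 members in 1% O2 against N2B27.

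Without the block, replicates 1 and 2 alone called 1 member (Tdgf1) in 1% O2+Dox against Dox and in 1% O2+DAPT against DAPT, and 0 other pathway genes in N2B27 against ESC and in 1% O2+Dox against Dox. Replicates 3 and 4 alone called 1 member (Tdgf1) in each of the 3 oxygen comparisons, 1 other pathway gene in N2B27 against ESC and in 1% O2 against N2B27, and 0 in 1% O2+Dox against Dox. Median scaling called 1 other pathway gene in 1% O2 against N2B27. The count of other pathway genes in 1% O2+DAPT against DAPT was 0 with the authors' processed values, every probe tested, no filter, an offset of 50 or only the groups compared. In 1% O2+Dox against Dox it was 0 with the authors' values or only the groups compared, and fitting only the groups compared, with fewer samples, gave 0 in N2B27 against ESC. The cause of the other shifts was not tested.

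Leaving out 1 sample gave 1 to 2 other pathway genes in N2B27 against ESC and 0 to 1 in each oxygen comparison. Leaving out 1 replicate number with the block gave 1 to 2 members in N2B27 against ESC, 1% O2 against N2B27, 1% O2+Dox against Dox and 1% O2+DAPT against DAPT, and 0 to 1 in 1% O2+Dox against 1% O2. Tdgf1 under 1% oxygen and Lefty2 with doxycycline at ambient oxygen were called with the block in all 8 of its alternatives, Lefty2 at 1.04 to 1.25. No difference that was called changed its sign. With median scaling, the share of calls over all genes that were higher was 78.3% in place of 66.7% in Dox against N2B27, 75% in place of 63.2% in 1% O2+Dox against 1% O2, 58.5% in place of 68.8% in 1% O2 against N2B27 and 23.4% in place of 66.7% in 1% O2+DAPT against DAPT. Signal over background limits Smad7, Skil and Cer1, which could not be assessed.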
